A study of Mus musculus with 58 samples.

Results

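Microglia of wild-type C57BL/6 mice were compared after an antisense oligonucleotide (ASO) against Mitf and after a control ASO labelled ntc. The comparison was chosen by the titles of the libraries: it takes the 4 wild-type libraries labelled mitf and the 4 labelled ntc, 8 of the 58 samples of the series. The series profiles microglia from wild-type mice and from mice with a knockout of Sgsh (SgshKO), a lysosomal enzyme gene, by polyA RNA-seq. Its wild-type ASO experiment asks what loss of single MiT/TFE transcription factors does. In SgshKO mice the Mitf and Tfe3 ASOs were given together and compared with ntc. Libraries without ASO from wild-type and SgshKO mice at 8 months are also read below. All mice of the ASO experiment were injected once into the cerebral ventricles, and microglia were taken 14 days later. An ASO is a short modified nucleic acid that pairs with a transcript and lowers it. Titles carry a grp number from 1 to 4 that links 1 library of each treatment. Further wild-type groups of 4 libraries each had received PBS, an ASO against Tfeb or an ASO against Tfe3, and they enter below as direct comparisons with the Mitf ASO. Microglia were sorted from forebrain as CD11b+, CD45low and CX3CR1+ cells. The labels give neither age nor sex of the ASO-treated mice, and do not say whether the libraries of a group come from separate animals, so p-values measure the spread between these libraries. The labels name no cell type to which the ASO was restricted.

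MITF, TFEB, TFE3 and TFEC form the MiT/TFE family of basic helix-loop-helix leucine zipper transcription factors. They bind E-box sequences with the core CACGTG as homodimers or as heterodimers with each other. The family is known for the control of lysosomal and autophagy genes, and nutrient signalling through mTORC1 holds its members in the cytoplasm. MITF is best known from melanocytes and osteoclasts, where it drives pigment and bone-resorption genes.

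The counts per library ran from 16554404 to 30378870 with the control ASO and from 16111626 to 23999147 with the Mitf ASO, over the 10277 genes of the deposited table. Values below are CPM, counts scaled to the library total after a TMM correction for library composition, and 4 values are always given in the order of grp 1 to 4. Log2 CPM of libraries within a group correlated with r of 0.966 to 0.984 across genes. All 10 microglial markers of a fixed list were measured, and their summed level was 67200 to 71100 CPM with the control and 62800 to 66500 CPM with the Mitf ASO. The 22 dissociation-response genes summed to 3500 to 4420 and 3150 to 3390 CPM. Both sums were lower in all Mitf ASO libraries than in any control library. Of markers of other cells, 3 of 13 astrocyte, 4 of 15 oligodendrocyte, 1 of 14 neuron, 3 of 16 endothelial and mural, 2 of 18 monocyte and neutrophil, 2 of 13 border macrophage and 4 of 16 lymphocyte genes were measured. Their summed levels overlapped between the groups on every list, for example 136 to 168 against 140 to 159 CPM for oligodendrocytes and 338 to 518 against 411 to 532 CPM for monocytes and neutrophils. Of the 4 lymphocyte genes measured, Cd79b (-0.47), Il7r (-0.43) and Klrd1 (-1.04) were nevertheless called lower. The sum of all 4, which includes Ighm (not called), was 317 to 494 and 316 to 466 CPM. The part of the lower lymphocyte genes in the results below was not tested. Defining markers such as Mog, Gfap, Cldn5, S100a8, Cd163 and Cd3e had no values analysed here. The 4 Y-linked genes measured summed to 117 to 165 and 131 to 170 CPM, and 1 of them, Eif2s3y, was called higher (0.40, log2). In bulk libraries fewer cells with a transcript and less of it per cell cannot be told apart.

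Mitf itself (chr6:97807052-98021349, + strand, GRCm38) fell to a few percent of the control. It was measured at 34.5, 42.8, 47.3 and 50.4 CPM with the control ASO and at 1.01, 1.58, 1.58 and 2.15 CPM with the Mitf ASO. The lowest control library lay far above the highest treated one. The mean was 3.61% of the control, and the fitted log2 change was -4.81 ± 0.12 (SE, edgeR quasi-likelihood test, adjusted p = 8.37e-15). The paralog Tfeb was at 54.2, 58.1, 52.5 and 54.7 CPM with the control and at 58.9, 58.0, 48.4 and 54.9 CPM with the Mitf ASO, and Tfe3 at 202, 192, 196 and 202 and 189, 189, 202 and 206 CPM. Both sets of libraries overlapped, with log2 fold changes of -0.00 ± 0.07 for Tfeb (SE, adjusted p = 0.99) and -0.01 ± 0.05 for Tfe3 (SE, adjusted p = 0.927), values whose sign is not fixed across the alternatives. Tfec was not analysed here. The other ASOs left Mitf at 38.8, 35.1, 41.8 and 46.1 CPM (Tfeb ASO) and 41.9, 44.2, 46.7 and 45.8 CPM (Tfe3 ASO), all within the range of the control libraries. They lowered their own targets, Tfeb to 6.91, 6.30, 4.59 and 5.40 CPM and Tfe3 to 40.0, 36.8, 34.9 and 40.5 CPM.

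**Figure D1:**
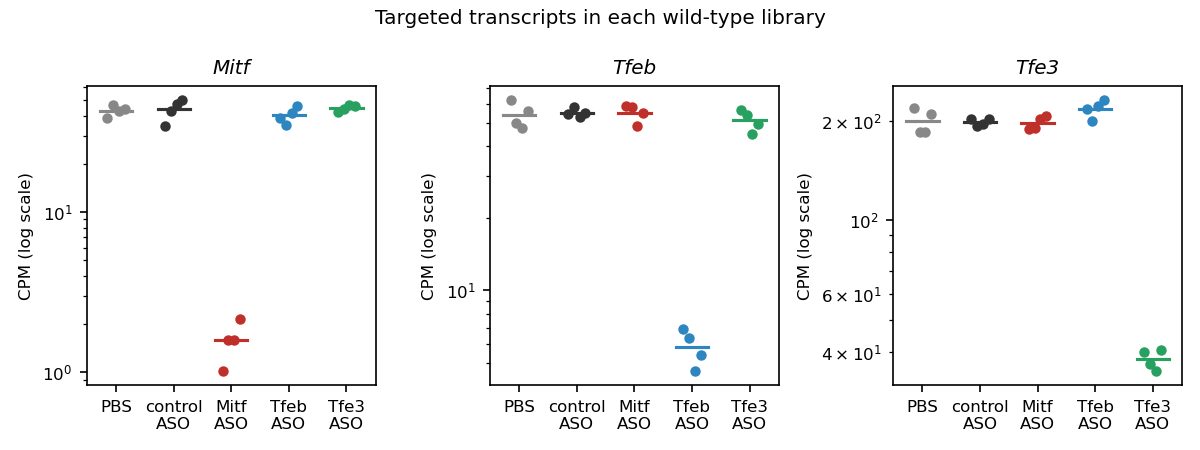
Level of Mitf, Tfeb and Tfe3 in each of the 20 wild-type libraries, in CPM on a log axis; points are libraries and bars are group means. Mitf lies between 1.01 and 2.15 CPM in the Mitf ASO libraries and at 34.5 CPM or more in all others, while Tfeb and Tfe3 are low only with their own ASOs.

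The test was edgeR's quasi-likelihood test with the grp number as a block, fitted over all 20 wild-type ASO libraries, with Benjamini-Hochberg adjustment. Across the 10277 genes tested, 593 were higher (5.77%) and 535 lower (5.21%) with the Mitf ASO at an adjusted p under 0.05, 1128 in all (11%). Most changes were small. A change of at least 2-fold was seen in 17 of the higher and 8 of the lower genes, whereas 85.7% of the higher and 93.3% of the lower genes moved by under 1.5-fold. The median log2 change was 0.33 among the higher, -0.29 among the lower and -0.01 among all genes. The direction was the same in all 4 pairs of libraries for 588 of the higher and 529 of the lower genes, and the 4 treated and 4 control libraries did not overlap for 294 and 217 of them, against 7.67% of all genes tested. Without the pairing by grp number the counts fell to 147 higher and 64 lower genes, so 69.7% of calls were higher in place of 52.6%. Leaving out 1 library also moved the total: it was 621 without control library 1, 668 without control library 4, 678 without Mitf ASO library 1 and 630 without Mitf ASO library 2.

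Among called genes with a mean of at least 1 CPM the largest increase was in Lox, which encodes lysyl oxidase, an enzyme that cross-links collagen and elastin. Lox was at 4.96, 2.19, 5.38 and 1.77 CPM with the control and at 22.7, 17.1, 14.3 and 19.2 CPM with the Mitf ASO, 5.35-fold more, or 2.42 ± 0.31 in log2 (SE, adjusted p = 6.38e-05). Every treated library exceeded every control library. Chst2 (chr9:95399292-95406722, -), a sulfotransferase of the Golgi, rose from 6.22, 6.84, 10.4 and 5.06 to 36.5, 22.3, 16.6 and 22.6 CPM, by 1.73 ± 0.22 (SE, adjusted p = 6.38e-05). Its groups did not overlap either, and grp 1 was the highest treated library for both genes.

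Cst7 (chr2:150570415-150578944, +), which encodes cystatin F, an inhibitor of cysteine cathepsins that is induced in disease-associated microglia, was at 7.25, 9.22, 24.1 and 9.03 CPM with the control and at 33.9, 26.0, 33.4 and 37.5 CPM with the Mitf ASO. The log2 fold change was 1.46 ± 0.25 (SE, adjusted p = 0.000921). Control library 3 stood well above the other controls but below all treated libraries. Dpp7 (chr2:25352276-25356359, -), a lysosomal dipeptidyl peptidase, had the lowest adjusted p of the 12 largest increases. It rose from 46.5, 42.1, 49.5 and 32.4 to 99.2, 97.4, 89.9 and 82.2 CPM, by 1.12 ± 0.10 (SE, adjusted p = 1.63e-06), with no overlap. Gpr162, an orphan receptor, rose by 1.42 ± 0.20, and Olfm4, a secreted olfactomedin glycoprotein, by 1.22 ± 0.19 (SE, adjusted p = 0.000159 and 0.000441). Slc2a6, a glucose transporter of lysosomal membranes, rose from 1.53, 1.38, 2.27 and 1.84 to 4.38, 4.01, 5.11 and 2.47 CPM, by 1.17 ± 0.26 (SE, adjusted p = 0.00803).

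The remaining genes of the 12 largest increases were at low levels. Pdcd1, the gene of the checkpoint receptor PD-1, was at 4.53, 2.76, 4.18 and 2.33 CPM and 11.8, 5.41, 9.20 and 9.62 CPM (1.39 ± 0.28, SE, adjusted p = 0.00386). Il3ra, a subunit of the interleukin-3 receptor, was higher by 1.19 ± 0.28, Adamtsl4, a secreted matrix protein, by 1.14 ± 0.28, and Mobp, a myelin protein gene, by 1.28 ± 0.30 (SE, adjusted p = 0.0106, 0.0126 and 0.00982). Mobp is on the oligodendrocyte marker list, whose other 3 measured members (Cnp, Mag and Mbp) were not called. The treated and control libraries of Adamtsl4 overlapped. The calls of Pdcd1, Mobp, Il3ra and Adamtsl4 were lost without the pairing, with adjusted p up to 0.08, 0.06, 0.0508 and 0.203.

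Of the 12 largest decreases Gpr165 had the lowest adjusted p after Mitf. This orphan receptor gene (chrX:96713441-96719388, +), a marker of homeostatic microglia, was at 241, 381, 209 and 362 CPM with the control and at 99.7, 154, 106 and 165 CPM with the Mitf ASO. It fell by 1.18 ± 0.10 on the log2 scale (SE, adjusted p = 6.51e-07), to 44% of the control. All treated libraries were below all controls, and both groups differed between pairs, with grp 2 and 4 above grp 1 and 3 in the treated libraries. Chml (chr1:175682237-175692901, -), a Rab escort protein needed for prenylation of Rab GTPases, fell from 30.4, 37.0, 33.8 and 37.2 to 12, 19.5, 18.4 and 22.1 CPM, a log2 change of -0.96 ± 0.12 (SE, adjusted p = 3.85e-05). Ccr1 (chr9:123962124-123968692, -), a receptor for inflammatory chemokines, fell from 15, 19.1, 15.7 and 18.8 to 8.89, 7.31, 6.78 and 10.8 CPM, a log2 change of -1.03 ± 0.22 (SE, adjusted p = 0.00563). For both genes all treated libraries were below all controls.

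Rasgrp4, an activator of Ras, fell from 3.71, 2.85, 3.95 and 3.35 to 1.26, 1.17, 1.86 and 1.77 CPM, a log2 change of -1.21 ± 0.28 (SE, adjusted p = 0.00882). Sec16b, a protein of endoplasmic reticulum exit sites, fell from 10.4, 9.31, 5.92 and 7.59 to 2.19, 4.06, 4.18 and 5.38 CPM, a log2 change of -1.10 ± 0.21 (SE, adjusted p = 0.00229). Neither overlapped between the groups. Mb21d2 changed by -0.90 (adjusted p = 0.00339) and lost its call without the pairing. The erythropoietin receptor gene Epor changed by -0.91 (adjusted p = 0.0133) and was lost without Mitf ASO library 1 (adjusted p = 0.056). The call of Klrd1 (-1.04), the natural killer receptor chain CD94, ended when any 1 library other than control library 3 was left out. That of Gm10778 ended without any control library or Mitf ASO library 1 or 2. Ccr1l1 (-1.03) was lost without control library 4 or Mitf ASO library 1, 2 or 4. Gm10778 was at 1.85, 1.76, 7.71 and 7.97 CPM with the Mitf ASO and at 7.53, 8.70, 9.33 and 10.2 CPM with the control, and the groups overlapped. Ccr1l1 is a close copy of Ccr1, and reads may be shared between them.

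**Figure D2:**
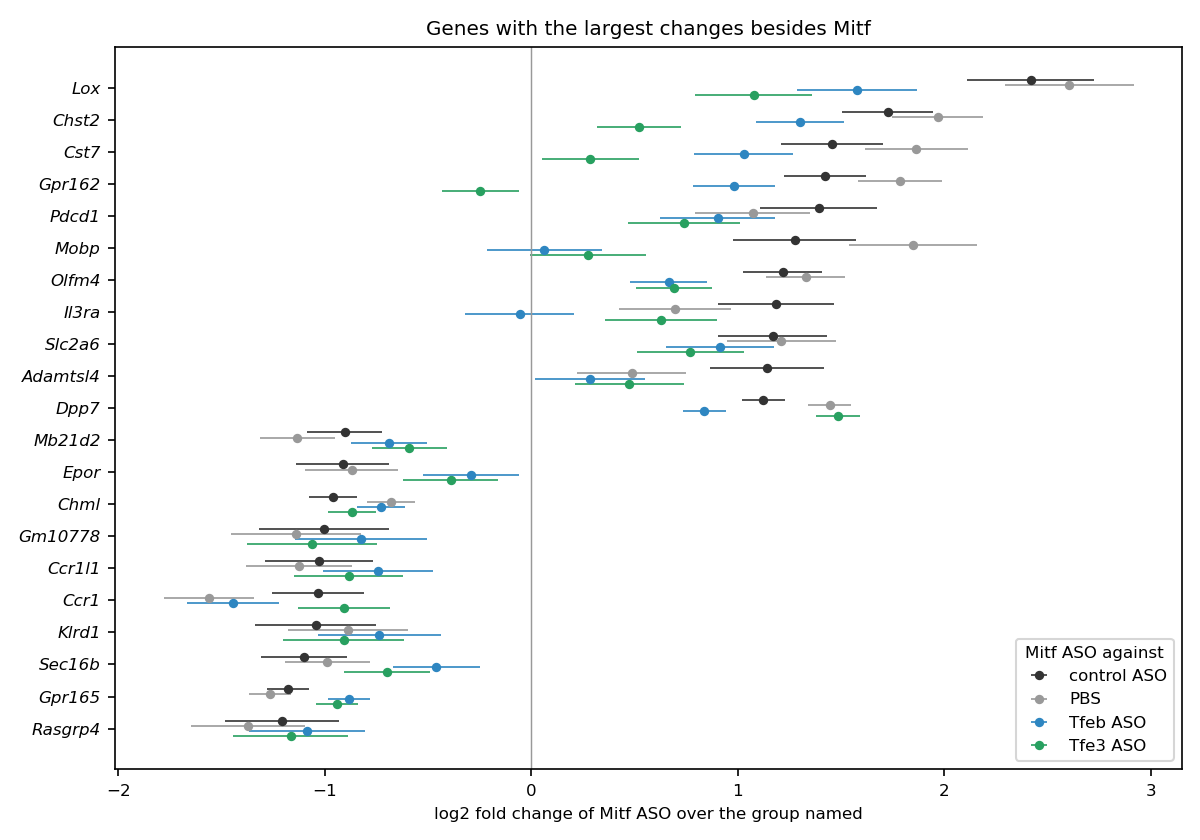
Log2 fold change of the Mitf ASO over each other wild-type group for 21 of the genes with the largest changes besides Mitf; points are fitted values and lines are ± 1 SE. The comparisons share the Mitf ASO libraries. Lox lies at 2.42 against the control ASO and 1.08 against the Tfe3 ASO, and Gpr162 at 1.42 and -0.25.

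Many lysosomal hydrolase genes were higher with the Mitf ASO. Of 61 listed genes 56 were tested, and 27 of these were higher (48.2%, against 5.77% of all genes), 0 lower and 29 not called. The median log2 change was 0.18 against -0.01 over all genes. With the authors' signal, and without control library 3, 1 member was called lower. All 27 were higher in each of the 4 pairs, as were 588 of all 593 genes called higher. For 22 of the 27 the libraries of the groups did not overlap, against 294 of the 593 and 7.67% of all genes tested. The genes were selected by their call on these same libraries, so these counts are no separate support. Ctsb (chr14:63122462-63145923, +), the cysteine protease cathepsin B, was at 3482, 3172, 3770 and 3151 CPM with the control and at 6557, 5642, 5890 and 5798 CPM with the Mitf ASO. This 1.76-fold rise had a log2 change of 0.82 ± 0.04 (SE, adjusted p = 2.37e-09), the lowest p after Mitf. Ctsd, the aspartic protease cathepsin D, was among the most abundant transcripts of these cells and rose from 15450, 14640, 16050 and 14780 to 22460, 21720, 21540 and 20250 CPM (0.50 ± 0.04, SE, adjusted p = 6.28e-07).

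Ctsa, the serine carboxypeptidase that also protects beta-galactosidase and neuraminidase, rose from 1249, 1154, 1464 and 1221 to 1960, 1802, 2085 and 1937 CPM (0.62 ± 0.04, SE, adjusted p = 4.39e-08). Pld3, a lysosomal exonuclease, rose from 255, 234, 309 and 244 to 409, 396, 452 and 411 CPM (0.68 ± 0.05, SE, adjusted p = 1.04e-07). For Ctsb, Ctsd, Ctsa and Pld3 no control library reached the lowest treated one. Further members that rose are the cathepsins Ctsz (0.62), Ctsl (0.55) and Ctss (0.36), the glycosidases Galc (0.44), Man2b1 (0.43), Gla (0.42), Gaa (0.40), Hexa (0.34), Idua (0.29) and Glb1 (0.24), the thioesterase Ppt1 (0.35), the peptidase Tpp1 (0.45) and the sphingolipid activators Gm2a (0.46) and Psap (0.35), all as log2 changes. The 29 members not called lay between -0.13 and 0.23. Among these were Lgmn (-0.01), Smpd1 (-0.00), Lipa (0.03) and Sgsh (-0.05).

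Lysosomal membrane and transport genes moved less uniformly: of 70 tested, 17 were higher (24.3%, against 5.77% of all genes). The chloride exchanger gene Clcn5 (-0.26) was the 1 lower member (1.43%, against 5.21%), and the median was 0.10. Cd63, a tetraspanin of late endosomes, rose from 178, 158, 188 and 121 to 364, 324, 322 and 255 CPM, by 0.98 ± 0.08 (SE, adjusted p = 6.28e-07). Npc2, the soluble cholesterol carrier of the lysosome, rose from 557, 558, 557 and 477 to 965, 909, 872 and 796 CPM, by 0.72 ± 0.05 (SE, adjusted p = 4.03e-08). Neither gene showed overlap between the groups. Lamp1, a main glycoprotein of the lysosomal membrane, rose by 0.52 ± 0.04, and Grn, the progranulin gene, by 0.47 ± 0.04 (SE, adjusted p = 4.89e-07 and 6.06e-07). Lamp2 (0.18), the cholesterol exporter Npc1 (0.04), the calcium channel Mcoln1 (0.19) and Tmem106b (-0.01) did not pass the test. Without the pairing, 8 in place of 17 members were called higher.

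The V-ATPase is the proton pump that acidifies lysosomes. Of 20 of its genes tested, 9 were higher (45%, against 5.77% of all genes) and 0 lower, with a median of 0.19. Atp6v0c, the membrane ring subunit, rose from 486, 436, 424 and 392 to 640.2, 597, 553 and 505 CPM (0.40 ± 0.05, SE, adjusted p = 8.83e-05), and the accessory subunit gene Atp6ap1 from 606, 586, 522 and 588 to 790.4, 783, 700.3 and 715 CPM (0.38 ± 0.05, SE, adjusted p = 7.67e-05). Both were separated between the groups. Atp6v1g1 (0.45) and Atp6v1c1 (0.31) rose in every pair with overlapping groups, and their calls were lost without the pairing. Without the pairing 2 of the 20 genes were called.

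**Figure D3:**
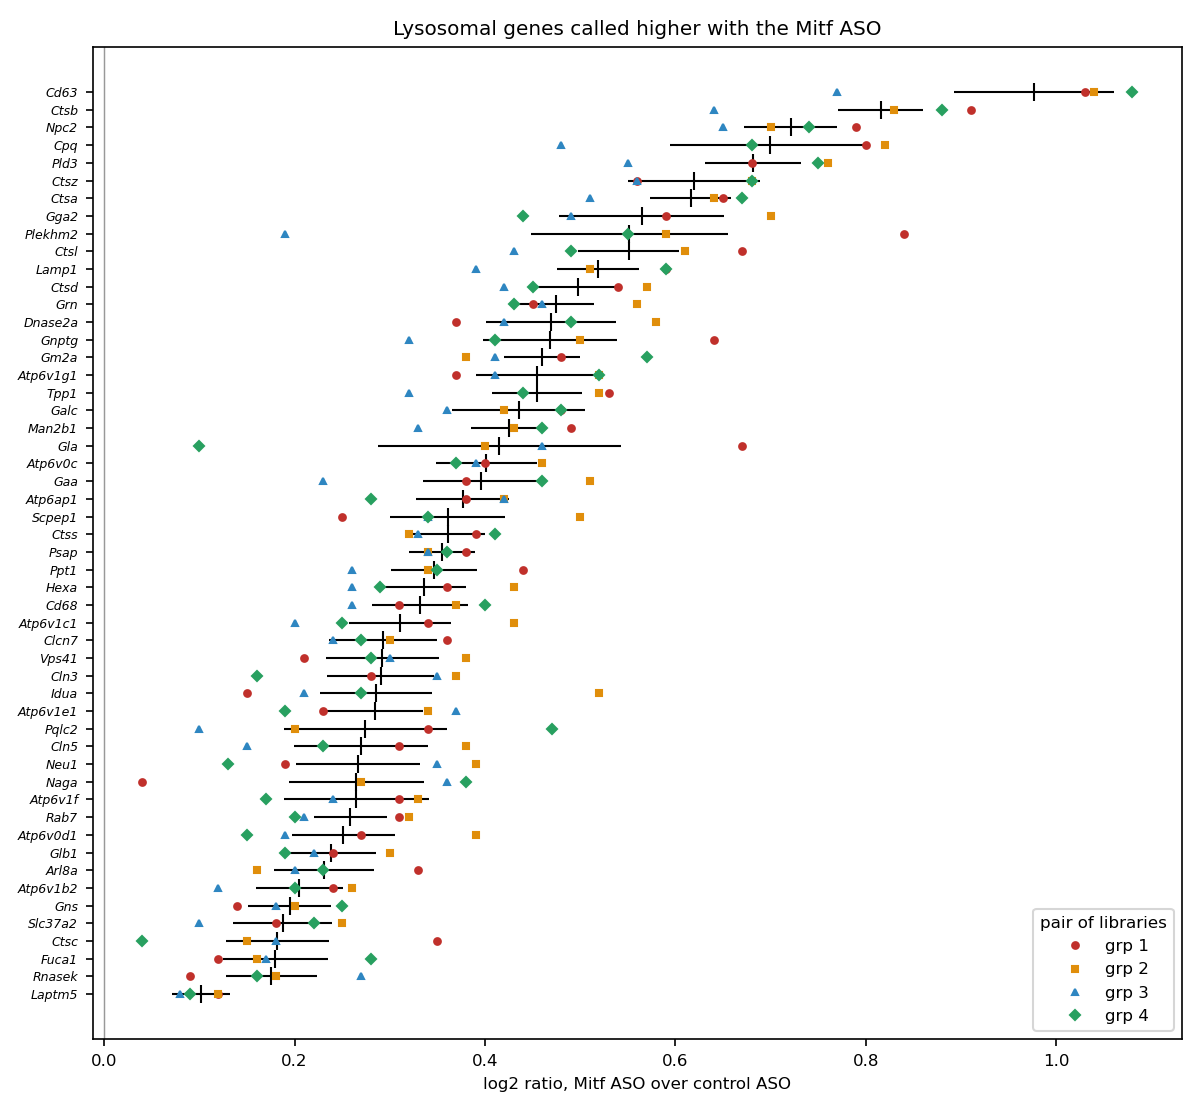
Log2 ratio of the Mitf ASO library to the control library in each of the 4 pairs, for 52 of the 53 lysosomal genes called higher on the hydrolase, membrane and V-ATPase lists. Coloured points are pairs, black ticks the fitted log2 fold changes and black lines ± 1 SE. All pairs of all these genes lie above 0, with Cd63 at 0.98 and Laptm5 at 0.10. The genes were selected by their call on these same libraries.

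Promoter windows of the lysosomal genes are shown because the E-box core that MiT/TFE factors bind can be read in them. RefSeq windows from 250 bases before to 50 after a gene's start (GRCm38.p6) were matched by symbol for 8120 of 10257 tested genes. The first 250 bases are printed 5′ to 3′ on the gene's strand, with each CACGTG in capitals, for Dpp7 (chr2:25356333-25356582, -), Ctsa (chr2:164833523-164833772, +), Lamp1 (chr8:13158911-13159160, +) and Ctsd (chr7:142387828-142388077, -). Dpp7 is the only gene of the 24 with the largest changes whose window holds the motif. Ctsa, Lamp1 and Ctsd were chosen after their values were seen, from lysosomal genes called higher, in order of p. Only genes whose window holds TCACGTG on either strand were taken. The presence of the motif in the printed windows was thus fixed by the choice. The first base of the motif lies 73 bases before the start in Dpp7, 12 in Ctsa, 61, 45, 28 and 15 in Lamp1, and 245 and 98 in Ctsd.
Dpp7: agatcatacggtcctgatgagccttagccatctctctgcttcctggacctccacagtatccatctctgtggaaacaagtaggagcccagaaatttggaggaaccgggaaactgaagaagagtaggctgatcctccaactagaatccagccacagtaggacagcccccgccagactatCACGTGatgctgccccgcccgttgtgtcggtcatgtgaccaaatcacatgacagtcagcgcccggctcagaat
Ctsa: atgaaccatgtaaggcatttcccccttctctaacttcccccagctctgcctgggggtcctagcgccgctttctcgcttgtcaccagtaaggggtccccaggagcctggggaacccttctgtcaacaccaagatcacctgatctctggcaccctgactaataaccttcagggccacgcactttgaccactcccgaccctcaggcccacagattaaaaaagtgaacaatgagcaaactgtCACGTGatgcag
Lamp1: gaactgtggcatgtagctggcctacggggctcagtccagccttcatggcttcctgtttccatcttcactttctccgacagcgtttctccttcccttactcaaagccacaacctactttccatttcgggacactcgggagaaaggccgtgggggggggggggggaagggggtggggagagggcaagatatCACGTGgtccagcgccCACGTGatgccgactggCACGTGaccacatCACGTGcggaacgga
Ctsd: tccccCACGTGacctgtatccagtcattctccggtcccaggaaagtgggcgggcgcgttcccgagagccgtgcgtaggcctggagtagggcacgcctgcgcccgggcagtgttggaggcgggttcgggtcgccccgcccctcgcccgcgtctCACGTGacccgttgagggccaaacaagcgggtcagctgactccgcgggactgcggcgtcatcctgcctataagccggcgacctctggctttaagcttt

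Over all tested genes with a window, 12.2% held CACGTG on either strand, against 16.9% of the genes called higher and 10.8% of those called lower. For TCACGTG, which contains the first motif, the shares were 7.44%, 13% and 6.1%, and for the M-box core CATGTG 10.3%, 15.2% and 9.62%. Over all 32851 RefSeq windows the shares of windows were 7.15%, 3.77% and 14.2% in the same order. On the 3 lysosomal lists CACGTG was found for 28.6% of the 42 genes called higher and for 25% of the 68 not called. CATGTG was found for 26.2% and 10.3% of them. Of the genes called higher that are on none of these lists, 15.7% held CACGTG. A match in these windows is not a measured binding site.

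Few autophagy genes were called. Of 55 tested, 3 were higher and 1 lower, with a median of -0.01, and their share called higher (5.45%) was near that of all genes. The 3 that rose encode the ubiquitin-like proteins of the autophagosome Gabarap (0.40 ± 0.05, adjusted p = 7.67e-05) and Map1lc3b (0.30 ± 0.06, adjusted p = 0.00375), and Becn1 (0.31 ± 0.06, adjusted p = 0.00233), a subunit of the lipid kinase that starts the process (all SE). For these the groups did not overlap. Rb1cc1, a subunit of the initiating kinase complex, had a log2 change of -0.37 ± 0.05 (SE, adjusted p = 0.000204) and lost its call without the pairing. Of 32 genes of MiT/TFE nutrient sensing and feedback, 4 were higher (12.5%, against 5.77% of all genes) and 0 lower. The 4 were the arginine sensor gene Castor1 (0.71), Gpr137b (0.36), Lamtor3 (0.28) and Rragc (0.22). All 4 had overlapping groups. Castor1 and Gpr137b were lost without the pairing, Lamtor3 in the absence of any 1 library but Mitf ASO library 3, and Rragc of any but control library 3 and Mitf ASO library 3.

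Of known MITF targets in melanocytes and osteoclasts, 25 of 50 listed genes were tested, with a median of 0.02. Of these, 4 were higher (16%) and 2 lower (8%), against 5.77% and 5.21% of all genes. Serpinf1, which encodes the secreted factor PEDF, fell from 78.8, 83.0, 71.6 and 70.7 to 42.8, 51.6, 50.9 and 51.6 CPM, a log2 change of -0.63 ± 0.07 (SE, adjusted p = 1.14e-05). All treated libraries were lower than all controls. Il6st, the shared receptor subunit gp130, had a log2 change of -0.29 ± 0.05 (SE, adjusted p = 0.00219) in every pair, with overlapping groups. Clcn7, a chloride-proton exchanger of lysosomes and of the osteoclast border, was higher by 0.29 ± 0.06, and Rab27a, a GTPase of melanosome transport, by 0.22 ± 0.05 (SE, adjusted p = 0.0026 and 0.00681). The calls of Il6st, Clcn7 and Rab27a were lost without the pairing.

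Genes of disease-associated microglia (DAM), the state described around plaques and dying neurons, had the highest median of the pathway lists. Of 60 listed genes 43 were tested, 25 were higher (58.1%) and 3 lower (6.98%), and the median was 0.43. The shares over all genes were 5.77% and 5.21%. The list shares 4 genes with the hydrolase list, 2 with the membrane and transport list and 1 with the V-ATPase list. Anxa5, which binds phosphatidylserine, rose from 24.2, 21.9, 28.9 and 20.5 to 58.9, 48.1, 52.1 and 45.7 CPM, by 1.11 ± 0.08 (SE, adjusted p = 1.20e-07), with separated groups. The integrin gene Itgax rose by 1.04, the receptor kinase gene Axl by 0.85, Csf1 by 0.59, Cd9 by 0.45 and Trem2 by 0.29. Its adaptor Tyrobp rose from 586, 591, 572 and 454 to 819, 872, 781 and 656 CPM, by 0.51 ± 0.06 (SE, adjusted p = 6.38e-05). Other transcripts used to mark the state, Apoe (0.52), Clec7a (0.61), Lpl (0.37), Spp1 (0.34) and Igf1 (0.35), did not pass. Grp 3 had the lowest log2 ratio of the pairs for Apoe (-0.13), Clec7a (-0.21) and Igf1 (-1.02). It was also the lowest for the called genes Itgax (0.20) and Cst7 (0.47), whereas Lpl was lowest in grp 2 (-0.12). Postn (-0.49) and the lipid exporters Abca1 (-0.22) and Abcg1 (-0.19) were lower. Without the pairing 14 members were called higher.

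Of 45 complement and phagocytic receptor genes, 11 were higher (24.4%) and 6 lower (13.3%), with a median of 0.09. The shares over all genes were 5.77% and 5.21%. The counts were 4 and 1 without the pairing, and the lower count was 3 without control library 1 or 4 and 2 without Mitf ASO library 1 or 2. C1qa (0.26), C1qb (0.30) and C1qc (0.20), the chains of complement C1q, the Fc receptor chain gene Fcer1g (0.30 ± 0.05, SE, adjusted p = 0.000455) and the integrin gene Itgb2 (0.31 ± 0.04, SE, adjusted p = 4.06e-05) rose. Siglece, an inhibitory sialic acid receptor, fell from 168, 163, 145 and 168 to 129, 130.5, 117 and 128 CPM, a log2 change of -0.35 ± 0.05 (SE, adjusted p = 0.000159), with no overlap. The receptor kinase gene Mertk (-0.20) and Itgav (-0.21) were also lower, and Itgav lost its call when control library 1 or 4 or Mitf ASO library 1, 2 or 3 was left out.

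Of 47 homeostatic microglial genes tested, 13 were lower (27.7%), 6 higher (12.8%) and 28 not called, with a median of -0.13. Over all genes 5.21% were lower and 5.77% higher. The 13 lower genes had log2 changes from -0.14 to -1.18, the last that of Gpr165. The 6 that were higher include Trem2 and the 3 C1q chains, which are on other lists as well. Cx3cr1, the fractalkine receptor used in the sort, fell from 10920, 11710, 9626 and 11760 to 9108, 8824, 8297 and 9536 CPM, a log2 change of -0.30 ± 0.04 (SE, adjusted p = 8.91e-05). Slco2b1, an organic anion transporter, fell from 2877, 3174, 3020 and 3369 to 2194, 2365, 2640 and 2653 CPM (-0.34 ± 0.04, SE, adjusted p = 4.31e-05). For Cx3cr1 and Slco2b1 all treated libraries were below all controls. Tmem119 (-0.18) and the transcription factor gene Sall1 (-0.21) were lower, while P2ry12 (-0.13), Csf1r (-0.08) and Siglech (-0.01) did not pass. The count of lower members was 6 without the pairing and 22 with the 8 libraries fitted alone, and 8 without Mitf ASO library 1 or 2. Without the pairing 1 member was called higher. The lower sum of the dissociation-response genes accompanies these decreases, and its part in them was not tested.

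TGF-beta maintains microglial identity in the adult brain. Of 22 genes of its signalling tested, 0 were higher and 5 lower (22.7%, against 5.21% of all genes), with a median of -0.10. The lower count was 1 without the pairing, 3 for genes with a mean count of at least 100, 2 without control library 1 or 4 or Mitf ASO library 1, 2 or 3, and 3 without control library 2 or Mitf ASO library 4. Eng, a co-receptor, was at 241, 269.6, 304 and 331 CPM with the control and 171, 202, 246 and 243 CPM with the Mitf ASO, lower in every pair but with overlapping groups (-0.42 ± 0.06, SE, adjusted p = 0.000224), and was lost without the pairing. Smad7, an inhibitor of the pathway, changed by -0.17. Ltbp3, a latent TGF-beta binding protein, had -0.62 ± 0.17 (SE, adjusted p = 0.0267), and leaving out any 1 library other than control library 3 ended this call.

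Of 78 transcription factors of microglia and macrophages tested, 5 were higher (6.41%, near the 5.77% of all genes). The lower members were 9 (11.5%, against 5.21% of all genes), and the median was -0.07. Without the pairing 0 were higher and 0 lower. Leaving out any 1 library other than control library 3 changed at least 1 of these counts by more than 1.5-fold, to as few as 0 higher without control library 1 or 4 and 3 lower without Mitf ASO library 1. Cebpd (-0.39 ± 0.07), Ets1 (-0.29 ± 0.06), Irf5 (-0.21 ± 0.05) and Mef2c (-0.18 ± 0.04) were lower (all SE, adjusted p = 0.00247, 0.00717, 0.00731 and 0.0125), and all 4 calls were lost without the pairing. Irf5 was also lost without Mitf ASO library 1, and Mef2c without Mitf ASO library 1 or 2. Spi1, the gene of the macrophage factor PU.1, was at 0.02 and Irf8 at -0.07, and neither passed. Of 49 toll-like receptor and inflammatory genes, 3 were higher (6.12%, near the 5.77% of all genes) and 7 lower (14.3%, against 5.21%). Without the pairing 1 was higher and 2 lower, and the lower count was 11 with the 8 libraries alone, 3 without control library 1 or Mitf ASO library 2 and 4 without control library 4 or Mitf ASO library 1. Tlr5, the flagellin receptor, fell from 44.7, 49.9, 34.9 and 40.8 to 25.5, 23.6, 24.5 and 29.0 CPM, a log2 change of -0.72 ± 0.11 (SE, adjusted p = 0.000335). No control library reached down to the treated ones. Among the chemokine genes Ccl3 (0.65), Ccl4 (0.53) and Cxcl16 (0.44) were higher. Ccl9 (-0.30) was lower, and Ccl2 (0.26), Ccl6 (-0.06) and Ccl12 (0.18) were not called. Ccl3 was at 49.0, 18.1, 16.3 and 17.4 CPM in the controls and 81.8, 28.9, 19.9 and 32.1 CPM with the Mitf ASO. For Ccl3 grp 1 was the highest library of both groups, and the call was lost without the pairing.

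Of 34 glycolysis and hypoxia genes tested, 15 were higher (44.1%), 1 lower (2.94%) and 18 not called, with a median of 0.20. The shares over all genes were 5.77% and 5.21%. Pkm, pyruvate kinase, rose from 280.3, 258, 298 and 243 to 439, 412, 439 and 382 CPM (0.63 ± 0.05, SE, adjusted p = 2.87e-07), and Gapdh from 689, 587, 677 and 603 to 879.9, 852, 905 and 809.9 CPM (0.43 ± 0.05, SE, adjusted p = 4.06e-05). Aldoa rose by 0.39 ± 0.05 and the growth factor gene Vegfb by 0.55 ± 0.07 (SE, adjusted p = 8.69e-05 and 4.04e-05). For these 4 genes the groups did not overlap. Tpi1 (0.52), Eno1 (0.35), Pgk1 (0.33), Ldha (0.26) and Hif1a (0.38) were also higher, whereas the hexokinases Hk1 (-0.01), Hk2 (-0.04) and Hk3 (0.00) and the glucose transporter Slc2a1 (-0.09) did not pass, and the fructose transporter Slc2a5 (-0.33) was lower. Without the pairing 9 members were called higher. Of 63 nuclear respiratory chain genes, 8 were higher (12.7%, against 5.77% of all genes) and 0 lower, with a median of 0.15. No member was called without the pairing, 1 without Mitf ASO library 2, and 3 to 5 without control library 1, 3 or 4 or Mitf ASO library 1 or 3. Examples are Ndufa10 (0.33 ± 0.07, SE, adjusted p = 0.00598) of complex I and Cox8a (0.27 ± 0.07, SE, adjusted p = 0.0115) of complex IV. Both calls were lost without the pairing, and Cox8a also without Mitf ASO library 2.

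The ferritin genes were among the increases with the lowest p. Fth1, the ferroxidase heavy chain, rose from 958, 1016, 1014 and 922 to 1885, 1973, 1654 and 1575 CPM (0.86 ± 0.06, SE, adjusted p = 3.63e-08), and the light chain gene Ftl1 from 964, 920.1, 1008 and 792 to 1865, 2002, 1799 and 1572 CPM (0.98 ± 0.07, SE, adjusted p = 4.03e-08). All treated libraries were above all controls. Of the 32 genes of oxidative stress and iron tested, 6 were higher (18.8%) and 1 lower (3.12%, Hfe at -0.23), with a median of 0.12. The shares over all genes were 5.77% and 5.21%. The higher count was 2 without the pairing and 3 without control library 1, 2 or 3. Hmox1, the heme oxygenase that frees iron from heme, was at 42.9, 33.9, 37.2 and 43.6 CPM and 70.1, 69.3, 46.7 and 52.0 CPM (0.59 ± 0.16, SE, adjusted p = 0.026). It was higher in every pair, but the call was lost without control library 1, 2 or 3, without Mitf ASO library 1 or 2 and without the pairing. Tfrc, the transferrin receptor, was higher by 0.35. Ferritin, Gapdh and class I genes have near-identical copies in the genome, so their counts depend on how the authors assigned shared reads.

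Cholesterol synthesis genes were called only upward: of 25 tested, 5 were higher (20%, against 5.77% of all genes) and 0 lower. The median was 0.16, and 4 of the 5 were higher in every pair. Idi1, an isomerase of the isoprenoid pathway, rose from 6.05, 5.84, 6.16 and 6.34 to 9.35, 8.93, 9.43 and 8.98 CPM (0.58 ± 0.13, SE, adjusted p = 0.00769), with controls and treated libraries each in a narrow range. Sqle (0.71), the epoxidase, and Srebf2 (0.27), the transcription factor of the pathway, were called too. Sqle was lost without control library 1, 2 or 4 or Mitf ASO library 1 or 3, Srebf2 also without Mitf ASO library 4, and both without the pairing. Of 37 lipid handling genes 4 were higher (10.8%) and 3 lower (8.11%), against 5.77% and 5.21% of all genes. Without the pairing 2 were higher and 0 lower. The higher count was 2 without control library 1, 2 or 4 or Mitf ASO library 2. The lower count was 1 without control library 1, 2 or 3 or Mitf ASO library 3, and 5 with the 8 libraries alone or DESeq2. Of 34 genes of amino acid and unfolded protein stress, 5 were higher (14.7%) and 1 lower (2.94%), against 5.77% and 5.21% of all genes. Psat1, a transaminase of serine synthesis, rose from 68.4, 45.3, 68.6 and 55.5 to 158, 96.3, 89.7 and 94.0 CPM (0.87 ± 0.10, SE, adjusted p = 3.49e-05), with grp 1 as the highest treated library, and Phgdh, the first enzyme of that pathway, rose by 0.31 ± 0.07 (SE, adjusted p = 0.00713), a call lost without the pairing.

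Of 28 antigen presentation genes, 6 were higher (21.4%, against 5.77% of all genes) and 0 lower, with a median of 0.11. B2m, the light chain of class I molecules, rose from 1788, 1699, 1821 and 1893 to 2628, 2457, 2423 and 2650 CPM (0.50 ± 0.05, SE, adjusted p = 1.60e-06), and H2-D1, a class I heavy chain, by 0.44 ± 0.08 (SE, adjusted p = 0.00147). Neither overlapped between the groups. Of 52 interferon response genes 3 were higher and 0 lower, a share (5.77%) equal to that of all genes in this fit, with a median of 0.13. The higher count was 12 with the 8 libraries alone, 5 with DESeq2, the authors' signal or without Mitf ASO library 1 or 4, and 1 without the pairing, without control library 1 or 3 or without Mitf ASO library 2 or 3. Lgals3bp rose from 268, 275, 328 and 309.9 to 391, 381, 596 and 385 CPM (0.55 ± 0.09, SE, adjusted p = 0.000843). The interferon regulator gene Irf7 was at 2.24, 2.61, 2.63 and 1.71 CPM and 3.88, 3.34, 10.7 and 5.44 CPM and did not pass (1.30 ± 0.41, SE, adjusted p = 0.0505). It passed in 7 of 15 alternatives, with adjusted p from 0.0127 to 0.23 over all of them. Mitf ASO library 3 was the highest for Lgals3bp and Irf7. Of 21 cell cycle genes 1 was called, Cdk4 (higher by 0.15), a share of 4.76% against 5.77% of all genes. Leaving out any 1 library other than Mitf ASO library 4 ended the call.

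**Figure D4:**
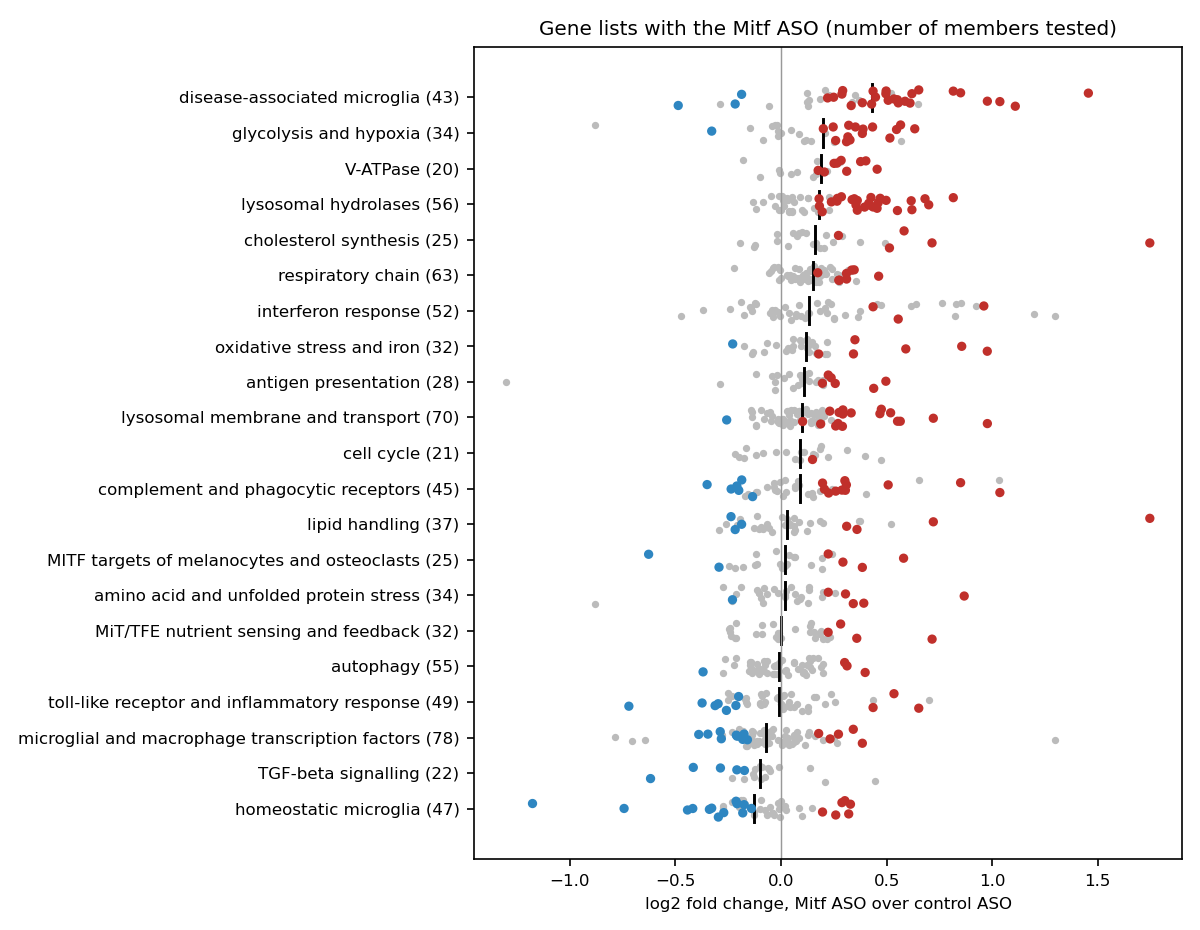
Log2 fold change of every tested member of 21 gene lists with the Mitf ASO over the control ASO, with the number tested in brackets. Red points were called higher, blue points lower and grey points were not called; black ticks are list medians, from 0.43 for disease-associated microglia to -0.13 for homeostatic microglia.

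Transcript length moved with these changes. The listed transcript had a median of 1942 bases for genes called higher, 3570 for those called lower and 2727 for those not called, and GC content was 51.5%, 49.4% and 50.1%. From the shortest to the longest of 4 equal length classes the median log2 change was 0.04, 0.01, -0.02 and -0.06, and the share called higher 8.84%, 7.16%, 4.56% and 2.53%. In the same order, 8 of 28, 27 of 62, 13 of 33 and 5 of 22 lysosomal genes were higher, with medians of 0.17, 0.15, 0.13 and 0.14. The lysosomal medians thus lay above those of the other genes in each class. The part of length in the values of the other lists was not tested.

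The Mitf ASO libraries were also compared with the PBS, Tfeb ASO and Tfe3 ASO libraries in the same model. These comparisons share the Mitf ASO libraries, so their values are given side by side and are not independent. Against PBS, 951 genes were higher (9.25%) and 909 lower (8.84%), including 32 hydrolases higher and 0 lower, 26 DAM genes higher and 1 lower, and 8 homeostatic genes higher and 18 lower. Antigen presentation had 10 higher and 0 lower members, the respiratory chain 23 and 0, and complement and phagocytic receptors 15 and 8. TGF-beta genes had 0 and 8, and glycolysis and hypoxia genes 16 and 1. Ctsb was higher by 0.94, Cst7 by 1.86, Lox by 2.61 and Dpp7 by 1.44, and the log2 difference of Gpr165 was -1.26. Il3ra (0.70) and Adamtsl4 (0.49) were not called against PBS. Of the 22 dissociation-response genes 11 were lower and 1 higher against PBS, compared with 2 and 1 against the control ASO. The total of 1860 genes (18.1%) was 535 without the pairing, 793 with the 8 libraries alone and 1207 without Mitf ASO library 2.

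Against the Tfeb ASO, 172 genes were higher (1.67%) and 191 lower (1.86%) with the Mitf ASO. Hydrolases contributed 15 of the higher and 1 of the lower genes, DAM genes 13 and 1, and homeostatic genes 0 and 11. Antigen presentation genes contributed 1 and 0, respiratory chain genes 0 and 0, and complement and phagocytic receptor genes 4 and 1. TGF-beta genes contributed 0 and 2, and glycolysis and hypoxia genes 6 and 2. Ctsb was at 4526, 3690, 4182 and 4115 CPM with the Tfeb ASO, below every Mitf ASO library, a direct difference of 0.53 (adjusted p = 1.28e-06). Lox (1.58), Chst2 (1.30) and Cst7 (1.03) were higher with the Mitf ASO, and Ccr1 (-1.44), Rasgrp4 (-1.08) and Gpr165 (-0.88) lower. Pdcd1 (0.90), Olfm4 (0.67), Mobp (0.06) and Il3ra (-0.06) did not pass the test, and Mobp was at 3.09, 2.25, 4.17 and 3.58 CPM with the Tfeb ASO. Kmt2a, a histone methyltransferase gene, was lower against the Tfeb ASO (-1.24) and at -0.84 against the control, where leaving out any library but control library 1 ended the call. The total of 363 (3.53%) was 33 without the pairing and 573 with DESeq2. It was 129 and 158 without Mitf ASO library 1 or 2, and 118, 143 and 217 without Tfeb ASO library 2, 3 or 4.

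Against the Tfe3 ASO, 270 genes were higher (2.63%) and 116 lower (1.13%). Hydrolases contributed 22 higher and 0 lower genes, membrane and transport genes 21 and 0, the V-ATPase 7 and 0, DAM genes 6 and 1, and homeostatic genes 0 and 6. Antigen presentation, respiratory chain and TGF-beta genes contributed 0 and 0 each. Complement and phagocytic receptor genes contributed 1 and 3, and glycolysis and hypoxia genes 5 and 1. Dpp7 stood at 36.7, 33.1, 33.4 and 28.4 CPM with the Tfe3 ASO, the lowest of the ASO groups in mean, and the direct difference was 1.49 (adjusted p = 1.35e-07). Tuba4a (1.5), an alpha tubulin, and Rapsn (1.46), a receptor-clustering protein, were also higher, as was Lox (1.08). Several genes that rose against the control did not pass the test against the Tfe3 ASO. Gpr162 was at 31.9, 21.2, 19.5 and 10.8 CPM with the Tfe3 ASO, a difference of -0.25 ± 0.19 (SE, adjusted p = 0.571), Cst7 differed by 0.29 ± 0.23 (SE, adjusted p = 0.609) and Chst2 by 0.52 ± 0.21 (SE, adjusted p = 0.201). The total of 386 (3.76%) was 100 without the pairing, 218 and 242 without Mitf ASO library 1 or 2, and 235 and 254 without Tfe3 ASO library 1 or 3.

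In separate libraries of SgshKO mice the Mitf and Tfe3 ASOs were given together (8 libraries, 8 with ntc). Mitf was at 60.7 to 82.1 CPM with ntc (mean 72.4) and at 7.51 to 23.2 CPM with the combination (mean 15.3), and Tfe3 at 137 to 194 and 75.0 to 87.1 CPM. Genotype, partner ASO and residual Mitf all differ from the wild-type experiment, and their parts cannot be told apart. In that comparison 512 of 10589 genes were higher (4.84%) and 476 lower (4.5%). Of the 593 genes higher with the Mitf ASO in wild type, 590 were measured there, and 71 of these (12%) were higher and 82 (13.9%) lower. These 71 are 14.2% of the genes higher with the combination, and the 82 are 18.3% of the genes lower with it. Of the 535 lower genes 517 were measured, 29 higher and 30 lower with the combination.

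The lysosomal and DAM lists had more lower than higher members with the combination. Hydrolases had 7 higher and 10 lower members, membrane and transport genes 2 and 22, the V-ATPase 0 and 7 and DAM genes 5 and 22, whereas homeostatic genes had 14 and 1 and interferon response genes 30 and 0. Ctsb was at 0.09 (adjusted p = 0.152), while Cst7 (-0.38), Cd63 (-0.27), Gpr162 (-0.67) and Dpp7 (-0.29) were lower with the combination (log2). Chml was lower in both experiments, with log2 changes of -0.96 in wild type and -0.69 in SgshKO (adjusted p = 6.27e-06), and Mobp was higher in both, by 1.28 and 1.25. Serpinf1 was lower with the Mitf ASO and higher with the combination (0.56, adjusted p = 0.000666).

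The genes called with the Mitf ASO were also read in the age series, whose libraries carry no ASO: 7 SgshKO against 4 wild-type libraries at 8 months. There 3090 of 14309 genes were higher (21.6%) and 2703 lower (18.9%) in SgshKO. Of the 577 genes higher with the Mitf ASO and measured there, 490 (84.9%) were higher in SgshKO and 4 (0.693%) lower. Of the 524 lower genes 416 (79.4%) were lower and 7 (1.34%) higher. Among genes not called with the Mitf ASO the shares were 18.8% higher and 23% lower. Those genes were less abundant, with a median of 25.7 CPM in the compared wild-type libraries. The medians were 73.9 CPM for genes called higher and 62.9 CPM for genes called lower. The part of abundance in these shares was not tested. The 490 genes are 22.9% of the genes higher in SgshKO that both tables hold, and the 416 are 17.1% of those lower. The share was 81.9% to 88.3% of higher and 75% to 80.6% of lower genes within the 4 classes of transcript length.

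The members of the lists followed the same order. All 27 hydrolases, all 9 V-ATPase genes, 15 of 17 membrane and transport genes and all 25 DAM genes that rose with the Mitf ASO were higher in SgshKO. All 13 homeostatic genes and all 5 TGF-beta genes that were lower with the ASO were lower there. Whatever their call with the ASO, 39 of 61 hydrolases, 14 of 22 V-ATPase and 45 of 73 membrane and transport genes were higher in SgshKO. So were 57 of 60 DAM genes, while 29 of 47 homeostatic and 14 of 27 TGF-beta genes were lower. Lox was at 0.303 ± 0.222 CPM (SD, n = 4) in wild type and 148 ± 32.4 CPM (SD, n = 7) in SgshKO, against means of 3.58 ± 1.86 and 18.3 ± 3.54 CPM (SD, n = 4 each) with the control and Mitf ASO. Gpr165 was at 225 ± 79.0 and 2.65 ± 0.921 CPM (SD, n = 4 and 7). The log2 change in SgshKO was 5.61 for Cst7, 5.76 for Chst2, 5.03 for Pdcd1 and 2.15 for Dpp7, and -1.64 for Ccr1 and -2.98 for Sec16b. Adamtsl4 (-0.24) and Gm10778 (-1.77) were not called. Mitf itself was not lower but higher in SgshKO, by 0.84 (adjusted p = 5.70e-08). Markers of other cells and of dividing cells were also higher in SgshKO: 15 of 18 neutrophil and monocyte genes, 8 of 11 border macrophage, 6 of 13 astrocyte and 34 of 49 cell cycle genes. With the Mitf ASO 0 of 2, 0 of 2, 0 of 3 and 1 of 21 measured genes of these lists were called higher, and their part in the shared calls was not tested.

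**Figure D5:**
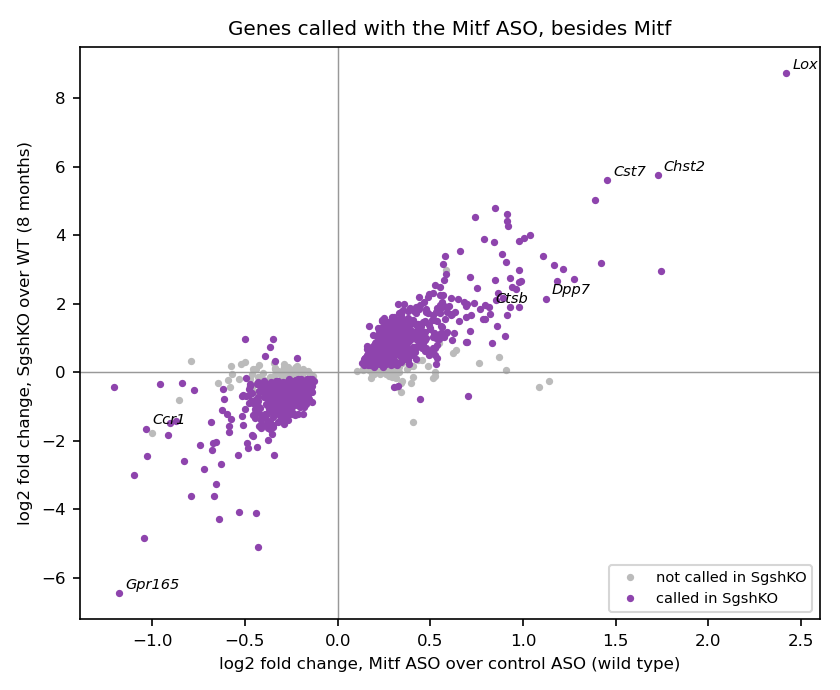
Log2 fold change of SgshKO over wild type at 8 months against that of the Mitf ASO over the control ASO, for the genes called with the Mitf ASO besides Mitf. Each point is a gene, purple where it was also called in SgshKO; 490 of 577 higher and 416 of 524 lower genes are called in the same direction. Genes between the 2 clouds are missing along the horizontal axis because only called genes are shown.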

How the data were processed

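Per the labels' protocols, polyA RNA of sorted forebrain microglia went into dUTP-stranded single-end libraries. RNA kits and sequencers are named without tying them to libraries, so such batches cannot be told apart from the groups. Raw counts were deposited for 10277 genes of the 20 wild-type ASO libraries, 10589 genes of the 16 SgshKO ASO libraries and 24940 genes of the 22 libraries of the age series. The authors also deposited a normalised, batch-corrected signal for the wild-type ASO libraries, used as an alternative only. The counting tool, strand setting and normalisation are not given in the sources used here. Without the strand setting, overlapping and antisense genes cannot be told apart. The submitters' processing notes list STAR 2.5.3a, kallisto 0.44.0, HOMER 4.11, DESeq2 1.36.0, R 4.2.3 and mm10. The lowest mean count of a listed wild-type ASO gene was 7.05, so genes with fewer counts were not analysed here. All 10277 gene IDs matched GENCODE M21 annotation, which gave coordinates and transcript lengths.

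Counts were fitted with edgeR 4.0.16 (TMM scaling, genes kept by filterByExpr at min.count 10, quasi-likelihood F test, Benjamini-Hochberg adjustment, threshold 0.05) in R 4.3.3, with all 20 wild-type ASO libraries in 1 model and the grp number as a block. The SE of a log2 fold change was derived from the same test. SgshKO ASO counts (grp as a block) and age series counts (no block) were fitted separately. Labels do not say what grp stands for. Deviations from group means correlated with r of 0.299 to 0.513 between Mitf ASO and control libraries of the same grp and -0.425 to 0.196 between different ones. PBS replicate 4 is grp 4 by its title and grp 3 by its column. It was taken as grp 4, and its mean r was 0.429 with grp 4 and 0.188 with grp 3. On simulated counts for 10277 genes the Mitf ASO test recovered 78 of 100 genes changed 1.5-fold and 92 of 100 changed 2-fold, with 6 false calls and 0 wrong signs. Recovery of smaller changes was not measured, though 85.7% of the higher and 93.3% of the lower calls were under 1.5-fold.

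The comparison, the gene lists and the rules were chosen with earlier results of these data known. Named genes are the MiT/TFE genes, up to 12 called genes per direction with the largest change (mean of at least 1 CPM, same sign in 4 pairs), up to 4 with the lowest p per pathway list and up to 3 per direction called also against each other ASO. Further list members are examples chosen after their values were seen. Motifs were searched on both strands of RefSeq windows. Alternatives were no block, the 8 compared libraries alone, RLE factors, DESeq2 1.42.0, other count filters, the authors' signal as log2(value + 1) in limma 3.58.1, PBS replicate 4 in grp 3, and each library left out in turn. Files of TPM and of the SgshKO batch-corrected signal were not used, and some results are not reported here.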

Additional observations from a re-analysis of the deposited data

Results flagged for a closer look

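In 11 of 206 groups of 4 libraries of the named genes, the highest or lowest library stood apart from the other 3 by a share of the group's range above the 95% critical value of Dixon's test. Chance alone flags about 1 in 20 groups. Among the controls, grp 1 was the highest for Ccl3 (49 CPM, the next library 18 CPM) and for Rragc (150 CPM, next 121 CPM). Grp 3 of the controls was the highest for Cst7 (24.1 CPM, next 9.22 CPM) and for Slc3a2 (506 CPM, next 474 CPM). Grp 4 of the controls was the lowest for Npc2 (477 CPM, next 557 CPM) and for Tyrobp (454 CPM, next 572 CPM). For Cst7, Npc2 and Tyrobp the treated and control libraries nevertheless did not overlap.

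Among the Mitf ASO libraries, grp 1 was the highest for Psat1 (158 CPM, next 96.3 CPM) and the lowest for Serpinf1 (42.8 CPM, next 50.9 CPM). Grp 3 was the highest for Il3ra (4.09 CPM, next 2.75 CPM) and for Lgals3bp (596 CPM, next 391 CPM). Grp 4 was the lowest for the respiratory chain gene Cox4i1 (75 CPM, next 116 CPM).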

How the results depend on the processing

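Mitf was called lower in every alternative run. The 1128 genes called against the control ASO became 211 (147 higher, 64 lower) with no replicate block, and 621 to 970 (362 to 512 higher, 245 to 458 lower) when each library was left out in turn. Against PBS the 1860 calls became 535 with no block, 793 with only the 8 libraries and 1207 to 1829 with 1 library left out. Against the Tfeb ASO the 363 calls became 33 with no block, 573 with DESeq2 and 118 to 458 with 1 library left out, and against the Tfe3 ASO the 386 became 100 and 218 to 303. On the lists, no block left 2 V-ATPase, 8 membrane and transport, 14 disease-associated, 1 homeostatic and 9 glycolysis genes higher and 6 homeostatic genes lower. Of the hydrolases 19 in place of 27 were higher with no block. Smaller lists also lost members with no block: the counts of higher genes were 3 of antigen presentation (6 with the block), 2 of cholesterol synthesis (5), 2 of lipid handling (4), 1 of amino acid stress (5), 0 of MITF targets (4) and 0 of nutrient sensing (4). The count of lower homeostatic genes was 22 with only the 8 libraries and 8 to 13 with 1 library left out. Of 100 named genes called, 53 kept their call in every alternative. The sign of Tfeb and Tfe3, neither called, reversed. Tfeb was at 0.00 with no block, only the 8 libraries, RLE factors or DESeq2, at 0.01 for genes with a mean count of at least 100, and at -0.05 to 0.04 with 1 library left out (above 0 without control library 2 or 3 or Mitf ASO library 1 or 3). Tfe3 was at 0.00 for genes with a mean count of at least 100, 0.03 with the authors' signal, and -0.04 to 0.04 with 1 library left out (above 0 without control library 2 or Mitf ASO library 1). The cause of these changes was not tested. Fewer libraries enter each fit with 1 left out. Genes below the lowest deposited counts were not analysed here.

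The age series was fitted with no block and the SgshKO ASO set with its grp number as a block. With the replicate number added as a block their calls were 5120 in place of 5793 and 1011 in place of 988.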
